A study of Homo sapiens with 9 samples.

Results

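The NRF2 pathway was followed in 2 human cell lines through 10 genes: the transcription factor NRF2 (gene symbol NFE2L2), its repressor KEAP1, and NQO1, TXNRD1, GCLC, GCLM, SRXN1, SLC7A11, HMOX1 and OSGIN1, which NRF2 is known to activate. The genes were taken by symbol. Each transcript entry of the deposited count tables was matched to a RefSeq symbol, and the entry with most reads over the 7 libraries was kept for each gene. All 10 were found among the 26625 genes of the tables. Of these, 9 had at least 20 reads in the A549 library or in its HEK293T counterpart, which was the minimum for a comparison, and OSGIN1 did not.

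NRF2 is a basic leucine zipper factor that pairs with small MAF proteins and binds the antioxidant response element in the promoters of detoxification, glutathione, thioredoxin and NADPH genes. In unstressed cells KEAP1 holds NRF2 and presents it to a CUL3 ubiquitin ligase, so that the protein is degraded. Electrophiles and oxidants modify KEAP1 cysteines and release NRF2, and the lung carcinoma line A549 is known to carry a KEAP1 mutation that has the same effect. This control acts mostly on NRF2 protein, which RNA libraries do not measure.

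The study compared oligo(dT) primers for reverse transcription in CLT-seq, a ligation-based RNA library method, on total RNA of cultured cells. HEK293T, a transformed embryonic kidney line, was primed with plain runs of T (T12, T18, T30) or with runs of 18 T closed by 1, 2 or 3 anchoring bases (T18V, T18VN, T18VNN), and A549 was primed with T12. Gene counts were analysed for 1 library of each of these 7 combinations. Both lines are labelled WT and had no treatment in the labels, but HEK293T grew in DMEM with high glucose and A549 in F-12K, each with serum, so line and medium cannot be told apart.

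The deposited library totals ran from 7491993 to 25578543 reads, and 1498224 (A549 T12) to 5200705 (HEK293T T18) reads lay on the genes kept. Levels are given as CPM, the reads of a gene for each 1000000 reads on genes, and 3 reads were taken as the detection floor, which is 0.919 CPM in HEK293T T12 and 2.00 CPM in A549. The line labels were checked with marker lists. The 8 A549 markers, among them KRT7, KRT8 and ALDH1A1, summed to 13945 CPM in A549 and to 10.3 to 30.8 CPM in the HEK293T libraries, and all 8 were at least 2-fold higher in A549. The 8 HEK293T markers summed to 3469 to 5009 CPM in HEK293T and to 119 CPM in A549, where 5 of them, including NEFL, NEFM and LIN28B, had no read. Of the 7 compared, 6 were lower in A549, and the imprinted gene PEG10 went the other way, with 170 reads in A549 and none in any HEK293T library. SOX11, the marker not compared, had no read in A549 or in HEK293T T12 and at most 3.16 CPM in HEK293T. PEG10 and SOX11 thus did not mark HEK293T here.

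Promoter windows of the members show where the letters of the antioxidant response element lie in the genes whose levels are described next. The windows, from RefSeq on GRCh38.p14, run from 250 bases before to 50 bases after an annotated start and are written 5′ to 3′ on the strand of the gene. Windows were found for 8 of the 10 members, 11 windows in all; HMOX1 and SLC7A11 had none in the table. The core TGACNNNGC was searched on both strands. It occurred in 4 of the 11 windows, which belong to GCLM, TXNRD1 and KEAP1, and in 13.3% of all 35116 windows in the table. Capitals mark the matches, which read GC...GTCA where they lie on the opposite strand. NQO1 is shown because its level differed most, and its window holds no match. Sequence outside the windows was not searched, so a window without a match does not mean that the gene lacks the element.
GCLM, chr1:93909381-93909680, minus strand: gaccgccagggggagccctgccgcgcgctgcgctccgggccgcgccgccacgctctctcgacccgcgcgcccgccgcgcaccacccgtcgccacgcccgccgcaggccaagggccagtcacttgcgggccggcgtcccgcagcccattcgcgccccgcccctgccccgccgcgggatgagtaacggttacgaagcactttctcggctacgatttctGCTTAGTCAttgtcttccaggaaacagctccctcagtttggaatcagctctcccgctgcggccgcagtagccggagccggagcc
TXNRD1, chr12:104215529-104215828, plus strand: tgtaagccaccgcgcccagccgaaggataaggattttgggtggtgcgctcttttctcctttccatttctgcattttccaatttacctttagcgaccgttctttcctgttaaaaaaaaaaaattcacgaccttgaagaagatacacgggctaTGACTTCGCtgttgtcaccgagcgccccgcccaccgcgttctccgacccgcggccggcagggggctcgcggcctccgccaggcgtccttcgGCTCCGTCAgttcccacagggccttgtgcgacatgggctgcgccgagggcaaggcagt
TXNRD1, chr12:104286782-104287081, plus strand: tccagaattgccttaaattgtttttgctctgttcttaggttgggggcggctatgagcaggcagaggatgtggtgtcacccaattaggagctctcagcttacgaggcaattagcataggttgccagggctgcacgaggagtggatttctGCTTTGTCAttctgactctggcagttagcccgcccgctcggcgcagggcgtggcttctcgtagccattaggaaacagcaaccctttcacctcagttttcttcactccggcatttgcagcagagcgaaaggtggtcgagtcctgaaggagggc
KEAP1, chr19:10502722-10503021, minus strand: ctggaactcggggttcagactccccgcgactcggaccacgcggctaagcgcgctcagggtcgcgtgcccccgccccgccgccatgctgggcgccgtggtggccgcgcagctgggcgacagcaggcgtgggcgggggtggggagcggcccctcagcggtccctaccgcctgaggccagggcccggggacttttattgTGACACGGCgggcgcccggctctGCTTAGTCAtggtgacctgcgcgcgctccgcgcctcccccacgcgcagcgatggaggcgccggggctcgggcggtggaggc
NQO1, chr16:69726511-69726810, minus strand: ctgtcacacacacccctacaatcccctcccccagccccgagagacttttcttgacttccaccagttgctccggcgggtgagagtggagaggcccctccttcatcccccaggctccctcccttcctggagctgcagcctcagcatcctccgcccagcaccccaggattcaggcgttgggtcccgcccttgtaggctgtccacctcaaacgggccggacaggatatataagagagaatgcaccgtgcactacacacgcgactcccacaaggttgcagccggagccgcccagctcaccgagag
In GCLM the match lies 34 bases before the start. The upstream TXNRD1 window holds matches 99 and 8 bases before its start, and the downstream one a match 102 bases before its start. KEAP1, the repressor, has matches 54 and 31 bases before the start of the window shown. Its other window, chr19:10503307-10503606, holds no match. The core followed by a further A was in 3 of the 11 windows and in 3.18% of all windows, and the match nearest the start in GCLM and in KEAP1 has the same letters, GCTTAGTCA. A match is only a match of letters, and binding was not measured.

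In A549, 8 of the 9 members compared were at least 2-fold higher than in HEK293T T12 and KEAP1 was at least 2-fold lower. Among all 10145 genes compared in the same way, 31.0% were higher and 29.2% lower. The members were chosen with earlier results of these data known, so their counts are a description and no test. NQO1, NFE2L2 and GCLC reached the minimum of 20 reads only in A549, and KEAP1 only in HEK293T T12. The members' median log2 ratio was 3.06, or 3.23 with zeros set to the floor, against 0.02 over all genes. By log2 ratio NQO1 differed most, and the next were the thioredoxin reductase gene TXNRD1, the glutathione synthesis gene GCLC and NFE2L2. By the plain ratio of CPM, NFE2L2 came before GCLC and TXNRD1, but its ratio rests on 2 reads in HEK293T T12. All 9 also lay outside the range of the 6 HEK293T libraries, which held for 26.4% of all genes on the higher side and 22.1% on the lower side. With other scalings SRXN1 lost its call and another member came inside that range, leaving 6 members both at least 2-fold higher and above it. SRXN1 itself stayed above all 6 HEK293T libraries. It was 1.73-fold the highest with TMM scaling, 1.96-fold with DESeq2 size factors and 1.04-fold with the deposited library totals. The member inside was SLC7A11 with TMM scaling (0.892 of T30) and DESeq2 size factors (0.991). With the deposited library totals it was NFE2L2 (0.411 of T18V). Each combination of line and primer had 1 library with gene counts, so these are ratios between libraries with no replicate check. The T12 comparison set A549 replicate 2 against HEK293T replicate 1, and the other T12 replicate of each line had no gene counts. The 95% intervals given in brackets are exact conditional binomial intervals. They cover counting error alone, because PCR copies of a molecule were counted as separate reads where no molecular identifier was used. A higher level in bulk RNA cannot be told apart from more cells with the transcript.

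**Figure D1:**
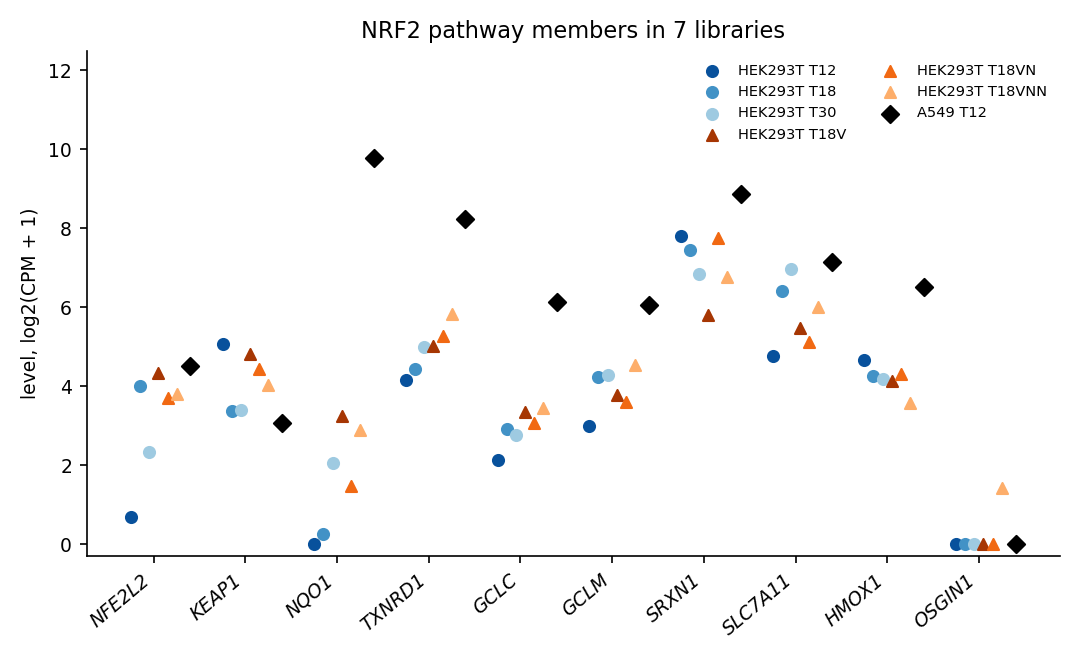
Level of each member, as log2(CPM + 1), in the 6 HEK293T libraries (circles unanchored, triangles anchored primers) and in A549 T12 (black diamond), 1 point a library. A549 lies above all HEK293T points for 8 members, by the widest gap for NQO1 (876 CPM against at most 8.54 CPM), and below them for KEAP1.

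NFE2L2 and KEAP1 form the switch of the pathway. NFE2L2 (chr2:178095031-178128859, minus strand, hg19, from the deposited tables, as are all gene coordinates here) had 2 reads in HEK293T T12 and 33 in A549. Its levels were 0.612 CPM in HEK293T T12, 15.0 in T18, 4.06 in T30, 19.2 in T18V, 12.1 in T18VN and 13.1 in T18VNN, and 22.0 CPM in A549. HEK293T T12 was thus the lowest of all 7 libraries for this gene, and A549 was close to the highest HEK293T library. The ratio of A549 to HEK293T T12 was 36.0 (interval 9.20 to 309), but to T18V it was 1.15 (0.720 to 1.80), an interval that includes equality. Against the median of the 6 HEK293T libraries A549 was 1.75-fold higher, which is under the 2-fold threshold.

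KEAP1 (chr19:10596796-10614054, minus strand), the adaptor that presents NRF2 for degradation, was the member lower in A549. It had 11 reads in A549, which is 7.34 CPM. In HEK293T it was at 32.5 (T12), 9.42 (T18), 9.48 (T30), 27.4 (T18V), 20.5 (T18VN) and 15.3 (T18VNN) CPM. T12 was the highest of these libraries, and T18 and T30 were the lowest. A549 was 4.42-fold lower than HEK293T T12 (2.37 to 9.12) and 2.44-fold lower than the median of the 6 HEK293T libraries. The lowest HEK293T library, T18, was 1.28-fold above A549 (0.658 to 2.74), so at this depth A549 was not distinguishable from the low end of the HEK293T range.

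NQO1 (chr16:69743304-69760533, minus strand) encodes a quinone reductase and is a widely used readout of NRF2 activity. It had 1313 reads in A549, or 876 CPM. HEK293T T12 had no NQO1 read, and T18, T30, T18V, T18VN and T18VNN had 1, 7, 24, 8 and 23 reads, which are 0.192, 3.16, 8.54, 1.79 and 6.40 CPM. NQO1 was therefore near or under the floor in HEK293T T12 and T18 and low with the other primers. With the zero set to 3 reads, A549 was at least 954-fold higher than HEK293T T12. Over the highest HEK293T library, T18V, the ratio was 102.6 (68.7 to 161).

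TXNRD1 (chr12:104680460-104744085, plus strand), the cytosolic thioredoxin reductase, and SRXN1 (chr20:627259-634014, minus strand), the sulfiredoxin that repairs over-oxidised peroxiredoxins, belong to the thioredoxin arm. TXNRD1 was at 300.4 CPM in A549 and at 16.8 (T12), 20.6 (T18), 31.1 (T30), 31.3 (T18V), 37.5 (T18VN) and 55.9 (T18VNN) CPM in HEK293T. The groups did not come near each other: A549 was 17.8-fold higher than HEK293T T12 (13.5 to 24.0) and 5.37-fold higher than T18VNN. SRXN1 was already high in HEK293T, with 222 CPM in T12, 174 in T18, 115 in T30, 55.1 in T18V, 214 in T18VN and 107 in T18VNN, and had 465 CPM in A549. Its ratio to HEK293T T12, 2.09 (1.88 to 2.33), was the smallest among the 8 higher members. The log2 ratio of SRXN1 was 1.06 and fell under 2-fold with TMM scaling (0.79), DESeq2 size factors (0.97) or the deposited library totals (0.70).

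GCLC (chr6:53362139-53409927, minus strand) and GCLM (chr1:94350755-94375154, minus strand) are the catalytic and modifier subunits of glutamate-cysteine ligase, the rate-limiting enzyme of glutathione synthesis. GCLC was at 68.7 CPM in A549 and at 3.37, 6.54, 5.87, 9.25, 7.36 and 10.0 CPM in HEK293T with T12, T18, T30, T18V, T18VN and T18VNN. GCLM was at 66.1 CPM in A549 and, in the same order, at 7.04, 17.9, 18.5, 12.8, 11.2 and 22.2 CPM in HEK293T. Both subunits were lowest in HEK293T with T12 and highest in A549. The ratio of A549 to HEK293T T12 was 20.4 (10.9 to 42.2) for GCLC and 9.38 (5.91 to 15.5) for GCLM. Over the highest HEK293T library, T18VNN for both, it was 6.87 and 2.97.

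SLC7A11 (chr4:139085248-139163503, minus strand) is the cystine importer that feeds glutathione synthesis. It was at 142 CPM in A549 and at 26.3 (T12), 84.0 (T18), 125 (T30), 43.8 (T18V), 33.9 (T18VN) and 64.0 (T18VNN) CPM in HEK293T. Its HEK293T level thus differed 4.75-fold between primers, and T30 reached nearly the level of A549. The ratio of A549 to HEK293T T12 was 5.40 (4.18 to 7.02), and to T30 it was 1.14 (0.947 to 1.36), an interval that includes equality.

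HMOX1 (chr22:35777060-35790207, plus strand), the inducible haem oxygenase, was at 90.1 CPM in A549. In HEK293T it was at 24.5 (T12), 18.1 (T18), 17.1 (T30), 16.7 (T18V), 18.7 (T18VN) and 10.8 (T18VNN) CPM. HMOX1 had the narrowest HEK293T range of the members, and its highest value, with T12, was 3.68-fold below A549 (2.77 to 4.91). OSGIN1 (chr16:83986827-83999937, plus strand), a growth inhibitor induced by oxidative stress, had no read in A549 or in 5 HEK293T libraries and 6 reads in HEK293T T18VNN, so it was not detectable at this depth in A549.

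**Figure D2:**
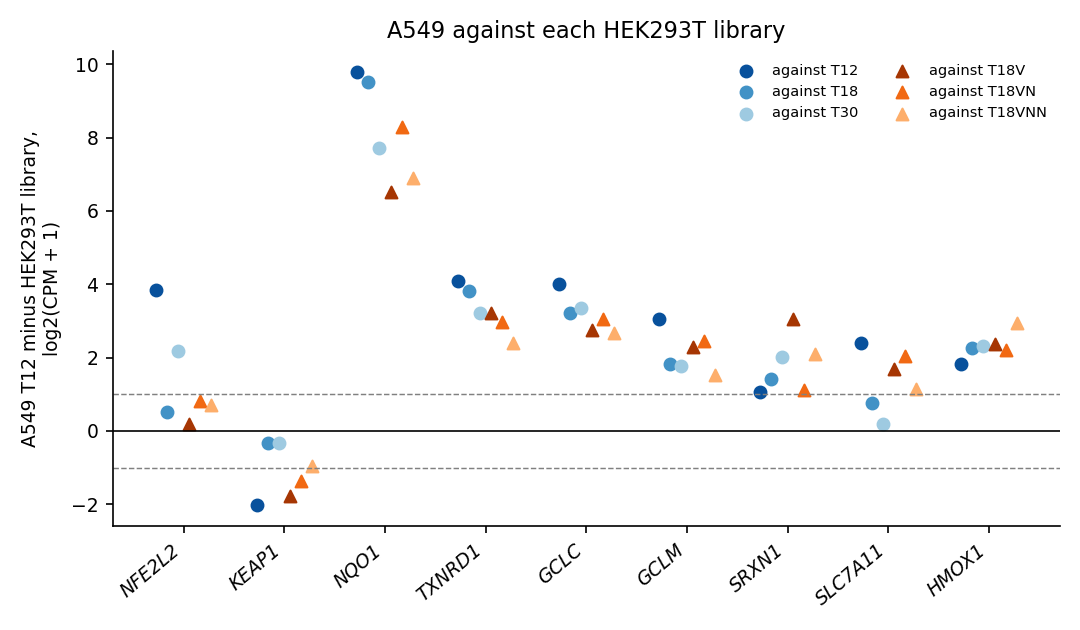
Level of 9 members in A549 T12 minus that in each HEK293T library, as a difference in log2(CPM + 1), 1 point a HEK293T library (circles unanchored, triangles anchored primers; dashed lines mark 2-fold). The points of NFE2L2 and SLC7A11 come down to near 0 against T18V and T30, where the CPM ratios are 1.15 and 1.14, and those of NQO1 lie far above the 2-fold line against every library.

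The comparator itself stood at an edge of the HEK293T range. HEK293T T12 was the lowest of the 6 HEK293T libraries for 6 of the 9 members (NFE2L2, NQO1, TXNRD1, GCLC, GCLM and SLC7A11) and the highest for the other 3 (KEAP1, SRXN1 and HMOX1). Among 9584 genes it was the lowest library for 17.5% and the highest for 22.1%. Against the median of the 6 HEK293T libraries, A549 was 354.5-fold higher for NQO1, 9.62-fold for TXNRD1, 9.89-fold for GCLC, 4.31-fold for GCLM, 3.22-fold for SRXN1, 2.64-fold for SLC7A11 and 5.12-fold for HMOX1. The direction of these 7 members and of NFE2L2 was therefore the same with either comparator, while the size was smaller for 5 of the 8 and larger for SRXN1 and HMOX1; the NQO1 values cannot be set against each other because T12 had no read.

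The spread between primers within HEK293T was about that of other genes. The median gap between the highest and the lowest of the 6 libraries, as log2(CPM + 1), was 1.68 over the 9 members and 1.83 over 11764 genes with at least 20 reads in a HEK293T library. The highest level was 2.26-fold the lowest for HMOX1, 2.97-fold for GCLC, 3.16-fold for GCLM, 3.32-fold for TXNRD1, 3.45-fold for KEAP1, 4.03-fold for SRXN1 and 4.75-fold for SLC7A11. NQO1 and NFE2L2 had fewer than 3 reads in T12, and with that library set to 3 reads the highest level was at least 9.29-fold the lowest for NQO1 and at least 20.9-fold for NFE2L2. Without T12 these values were at least 14.8 for NQO1, where T18 with 1 read became the lowest, and 4.73 for NFE2L2. Single libraries also set other ranges: without T12 the value was 1.71 for GCLC and 1.99 for GCLM, without T18V it was 2.07 for SRXN1, and without T18VNN it was 1.47 for HMOX1.

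**Figure D3:**
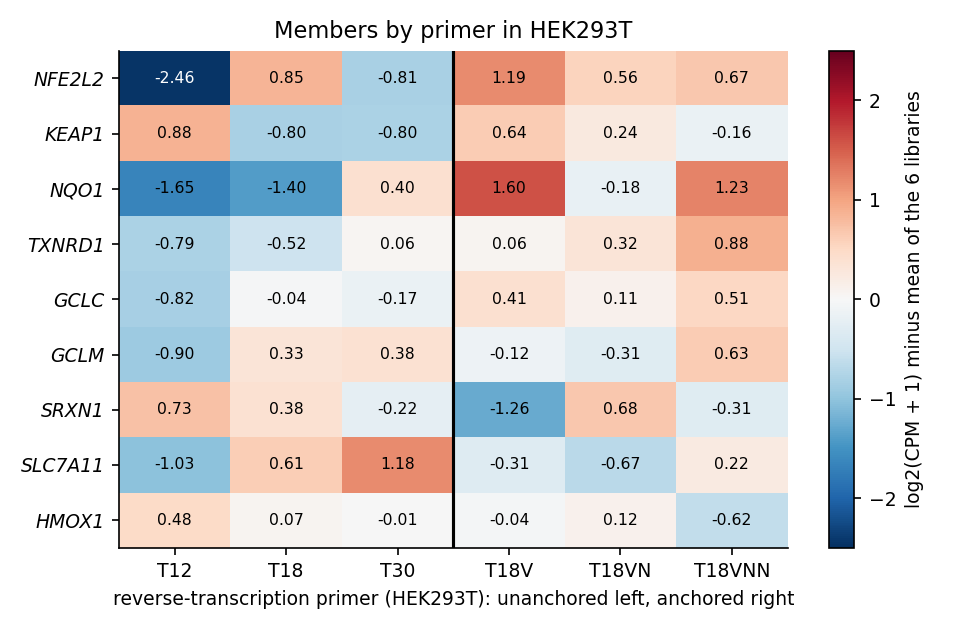
Level of 9 members with each of the 6 HEK293T primers, as log2(CPM + 1) minus the mean of the gene over the 6 libraries (no replicates). No primer was highest or lowest for all members; T12 was lowest for 6 and highest for 3.

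NFE2L2 reads were not spread alike over its transcript entries in the different libraries, a pattern chosen for description after its values were seen. The tables hold 8 NFE2L2 entries whose reads overlap, and the one with most reads (NM_001145412.3, 2984 bases) was kept. The shortest entry (NM_001313903.1) has 2636 bases. All 33 A549 reads, both HEK293T T12 reads and all 9 T30 reads were counted on both entries. By contrast, the shortest entry held 8 of 78 reads in T18 (10.3%), 32 of 54 in T18V (59.3%), 7 of 54 in T18VN (13.0%) and 15 of 47 in T18VNN (31.9%). The remaining reads in those libraries were counted on longer entries only. Counted on the shortest entry alone, NFE2L2 was at 0.612, 1.54, 4.06, 11.4, 1.56 and 4.17 CPM in HEK293T with T12, T18, T30, T18V, T18VN and T18VNN, and at 22.0 CPM in A549. On that entry A549 was 1.93-fold above the highest HEK293T library (1.15 to 3.25) and 7.83-fold above their median. The other members with more than 1 entry had the same reads on each.

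**Figure D4:**
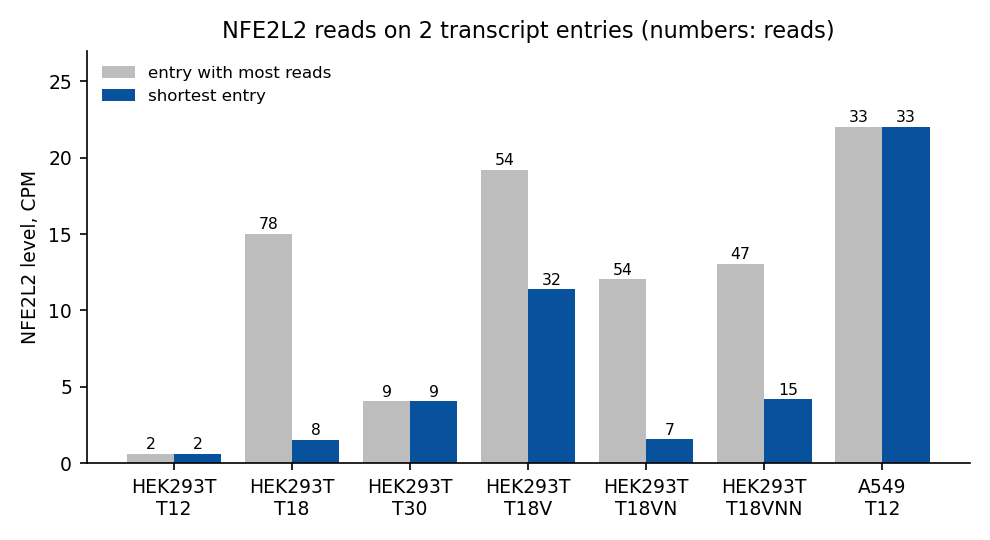
NFE2L2 level in CPM in each library, counted on the transcript entry with most reads (grey bars) and on the shortest entry (blue bars), with the reads above each bar and no replicates. Grey and blue bars are equal in A549 and in HEK293T T12 and T30, whereas the shortest entry holds 10.3% to 59.3% of the reads in the other HEK293T libraries.

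Per transcript length, on the deposited FPKM scale, the order of the members differed between the lines. In A549 the FPKM levels were 45.5 for NQO1, 23.2 for SRXN1, 9.44 for TXNRD1, 7.63 for HMOX1, 2.43 for GCLC, 1.98 for SLC7A11, 1.76 for GCLM, 0.994 for NFE2L2 and 0.381 for KEAP1. The counting intervals of GCLC and SLC7A11, and of SLC7A11 and GCLM, overlapped, as did those of TXNRD1 and HMOX1, and NQO1 and SRXN1 stood apart from all others. In all 6 HEK293T libraries SRXN1 was the highest member, with 4.96 to 22.3 FPKM. NQO1 ranked 7 to 9 of 10 in HEK293T and 1 in A549, and KEAP1 ranked 2 to 6 in HEK293T and 9 in A549. HMOX1 ranked 2 or 3 in every HEK293T library and 4 in A549.

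Anchored and unanchored primers were compared in HEK293T with 3 libraries each, where primers stand in for replicates. None of the 9 members tested passed an adjusted p of 0.05 in edgeR's quasi-likelihood test, 0 had an unadjusted p under 0.05, and DESeq2 called 0; edgeR called 1.35% of 10887 genes (0.781% higher and 0.569% lower with anchored primers). The smallest adjusted p was 0.424, for SLC7A11, which had a mean of 47.2 ± 15.3 CPM (SD, n = 3) with anchored and 78.5 ± 49.6 CPM (SD, n = 3) with unanchored primers in edgeR's test, a log2 fold change of -0.92 (SE 0.51). All 3 anchored libraries were above all 3 unanchored ones for TXNRD1 and GCLC, 2 of the 9 members, a separation seen in 23.6% of the genes tested; for TXNRD1 the nearest libraries were at 31.3 (T18V) and 31.1 CPM (T30). TXNRD1 had 41.6 ± 12.8 CPM with anchored and 22.9 ± 7.41 CPM with unanchored primers, a log2 fold change of 0.69 (SE 0.42), and GCLC 8.87 ± 1.36 and 5.26 ± 1.67 CPM, 0.57 (SE 0.67). For the other members the log2 fold changes were 2.27 (SE 1.34) for NQO1, 0.95 (SE 0.84) for NFE2L2, 0.15 (SE 0.56) for KEAP1, -0.093 (SE 0.55) for GCLM, -0.53 (SE 0.45) for HMOX1 and -0.60 (SE 0.45) for SRXN1. With the deposited library totals as library sizes TXNRD1 passed the test (log2 fold change 1.81, adjusted p = 0.0194 in edgeR). In that setting 2206 of all genes were called higher with anchored primers and 51 lower, so the pass is not particular to TXNRD1. Reads on genes made up 11.7% to 20.3% of the library total in the unanchored libraries and 27.7% to 37.5% in the anchored ones.

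Other genes of the pathway were described by lists of symbols. Of 60 such genes in the tables, 54 were compared, 31 were at least 2-fold higher in A549 than in HEK293T T12 and 11 lower, with a median log2 ratio of 2.12. These are 57.4% and 20.4% of the genes compared, against 31.0% higher, 29.2% lower and a median of 0.02 over all genes. Those values over all genes are also the ones to set beside each list that follows. The lists were chosen with earlier results of these data known, so the shares describe the lists and test nothing. Most of the higher genes, among them AKR1B10 and GPX2, reached the minimum of 20 reads only through A549. This held for nearly all higher genes of the detoxification and transport list. The shares and medians of the lists therefore lean on genes let in by their A549 level. The detoxification and transport list had 13 of 17 higher and 1 lower, with a median of 5.16. AKR1B10, an aldo-keto reductase, had 2354 reads in A549 and none in any HEK293T library, at least 1710-fold higher than HEK293T T12. AKR1C2, a steroid-metabolising aldo-keto reductase with near-identical relatives that may share reads, had 1836 reads in A549 and none in HEK293T T12. The aldehyde dehydrogenase gene ALDH3A1 had 2096 reads in A549 but 1 in HEK293T T12. The carbonyl reductase CBR1 was level, at 53.4 and 48.7 CPM, and the glutathione transferase GSTM3 was 13.2-fold lower in A549 (5.92 to 36.3).

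The NADPH list, the enzymes that supply reducing power to NQO1 and TXNRD1, had 5 of 6 higher, none lower and a median log2 ratio of 2.73. PGD, a dehydrogenase of the pentose phosphate pathway, was 7.79-fold higher in A549 than in HEK293T T12, IDH1 10.7-fold and the malic enzyme ME1 4.33-fold. Transaldolase (TALDO1) stood at 168 CPM in A549 against 262 CPM in HEK293T T12, within the range of the HEK293T libraries.

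The glutathione and thioredoxin list had 6 of 11 higher and 3 lower, with a median log2 ratio of 2.70. GPX2, a glutathione peroxidase of epithelial cells, had 614 reads in A549 and none in any HEK293T library, at least 446-fold higher than HEK293T T12. GSR, glutathione reductase, was 22.6-fold higher (16.0 to 33.0). The glutathione hydrolase GGT1 had 52 reads in A549 but 1 in HEK293T T12. GSS, glutathione synthetase, was 2.43-fold lower (1.44 to 4.35), but its 11.3 CPM in A549 (17 reads) was close to the lowest HEK293T library (12.3 CPM). CHAC1, which degrades glutathione, was 4.85-fold lower (3.33 to 7.31), although its 20.02 CPM in A549 matched the lowest HEK293T library (19.9 CPM). Unlike GCLC and GCLM, GSS, which acts directly after them, was thus not higher in A549.

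Of the partners of NRF2, 3 of 8 were higher (37.5%) and 3 lower (37.5%), near the shares of 31.0% and 29.2% over all genes, with a median log2 ratio of 0.68. Both small MAF genes named were higher in A549: MAFG was at 612 CPM against 149 CPM in HEK293T T12, and MAFK at 72.1 against 3.67 CPM. SQSTM1, the autophagy receptor that sequesters KEAP1, was 2.44-fold higher (2.24 to 2.65). BTRC, a ubiquitin ligase subunit of the second degradation route of NRF2, was 6.91-fold lower and the coactivator CREBBP 3.59-fold lower.

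The iron and haem list had 3 of 7 higher (42.9%) and 2 lower (28.6%), with a median log2 ratio of 0.84. The ferritin genes FTL and FTH1, both with many processed copies that may share reads, were 4.49-fold and 10.3-fold higher in A549 than in HEK293T T12. BLVRB, a biliverdin reductase, was 1.83-fold higher in A549 than in HEK293T T12, under the 2-fold threshold. Its 38.0 CPM in A549 lay above all 6 HEK293T libraries (1.81 to 20.8 CPM). The constitutive haem oxygenase HMOX2 was 2.78-fold lower (1.94 to 4.10), but its 23.4 CPM in A549 was close to the lowest HEK293T library (26.7 CPM). BLVRA was 9.18-fold lower (2.99 to 45.7), although A549 was inside the HEK293T range for BLVRA.

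A list of other genes tied to NRF2 or to the amino acid response had 2 of 6 higher (33.3%), 2 lower (33.3%) and a median log2 ratio of -0.85, with both shares near those over all genes. The taurine transporter SLC6A6 was 53.6-fold higher in A549 (30.2 to 104.9). ATF4, the factor of the amino acid response that is also known to activate SLC7A11 and CHAC1, was 3.11-fold lower (2.38 to 4.12), its target ASNS 4.29-fold lower and its target TRIB3 1.91-fold lower. A549 was inside the HEK293T range for ASNS and TRIB3. HEK293T T12 was the highest HEK293T library for ATF4, ASNS and TRIB3. For ATF4, the 42.0 CPM in A549 was much nearer to the lowest HEK293T library (54.6 CPM) than to T12 (131 CPM).

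**Figure D5:**
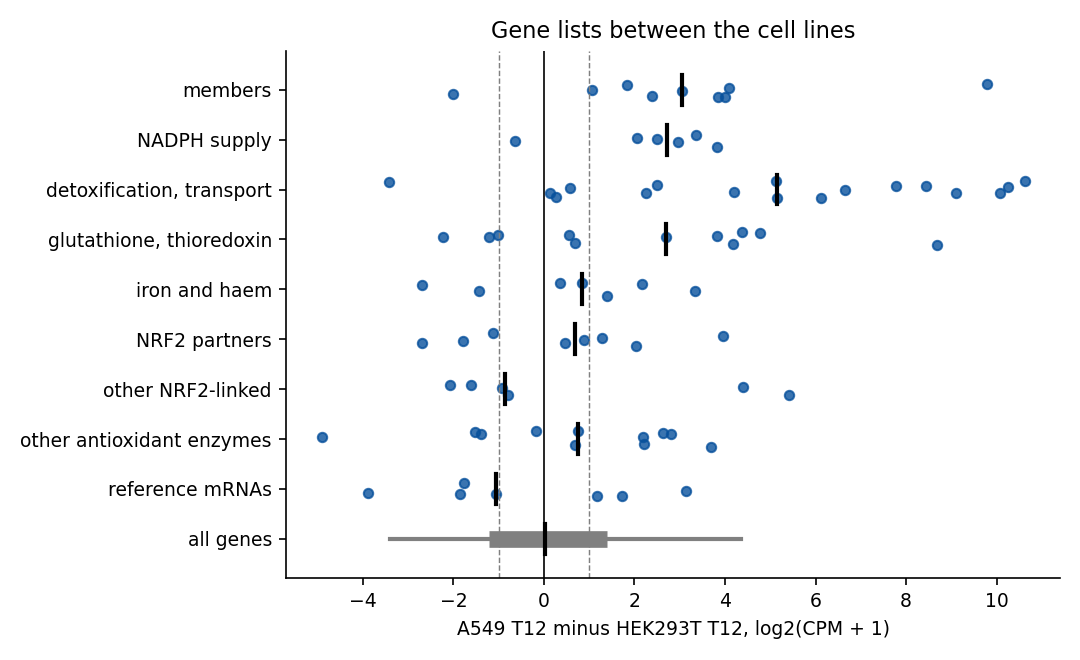
Log2 ratio of A549 T12 to HEK293T T12 (CPM + 1) for every gene compared in each list, 1 point a gene, with the median of each list as a black bar; for all genes the thick and thin grey bars span percentiles 25 to 75 and 5 to 95. The medians are 3.06 for the members, 5.16 for detoxification and transport and 2.73 for NADPH supply, and -1.05 for the reference mRNAs.

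Of 41 genes of the pathway lists tested in edgeR between anchored and unanchored HEK293T primers, 2 passed (4.88%, against 1.35% of all genes), and both fell with anchored primers. FTL, the ferritin light chain, had 4504 ± 1233 CPM (SD, n = 3) with unanchored and 1039 ± 303 CPM (SD, n = 3) with anchored primers, a log2 fold change of -2.29 (SE 0.33, edgeR adjusted p = 0.00767). CHAC1 had 81.7 ± 16.3 CPM with unanchored and 28.1 ± 7.15 CPM with anchored primers, a log2 fold change of -1.70 (SE 0.35, edgeR adjusted p = 0.0419). In the FTL and CHAC1 comparisons no anchored library reached the lowest unanchored one. The same held for 740 of the 10887 genes tested, and 23.6% separated in either direction. Some list genes that were not called also separated downwards. The call for CHAC1 was lost when any 1 of the 6 libraries was left out (T12, T18, T30, T18V, T18VN or T18VNN), with log2 fold changes of -1.84 to -1.55 and adjusted p of 0.0711 to 0.141 in edgeR. It was also lost with no scaling beyond reads on genes (-1.53, adjusted p = 0.0534 in edgeR) and with the deposited library totals (-0.69, adjusted p = 0.283). That for FTL was lost only with the deposited library totals (-1.07, adjusted p = 0.076 in edgeR).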

How the data were processed

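CLT-seq RNA libraries of HEK293T (6 primers) and A549 (T12) were analysed, 1 library each. Per the submitters' processing notes, the tools were FastQC 0.11.8, cutadapt 2.10, Trimmomatic 0.39, HISAT2 2.2.1 and SAMtools, and the build was hg19 (GRCh37); how reads with several matches were counted is not given in the sources used here. The authors deposited, for each RefSeq transcript, a read count, a signal scaled to a library total (FPM) and an FPKM, which also divides by mRNA size. Per the file headers no use of strand is stated, so reads of overlapping and antisense genes cannot be told apart. TXNRD1 overlaps EID3 (6 reads over the 7 libraries), SLC7A11 overlaps SLC7A11-AS1 (1 read) and NFE2L2 overlaps MIR3128 (0 reads). Deposited poly(T) lengths and coverage profiles were not used.

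Of 61177 entries, 60133 matched a symbol, giving 26625 genes with 1 entry each. CPM used the reads on these genes. A549 and HEK293T T12 were compared at 2-fold on log2(CPM + 1), and the higher of both had to hold 20 reads or more. Anchored and unanchored libraries went into edgeR 4.0.16 under R 4.3.3 (filterByExpr, TMM, quasi-likelihood F-test, Benjamini-Hochberg at 0.05), with DESeq2 1.42.0 as an alternative; the scripts were tested on simulated data. P-values measure the spread between primers, not between cultures. Promoter windows were read from a RefSeq table on GRCh38.p14, and no coordinates were converted between builds.

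All 10 members are named. In each list, genes with 50 reads or more in either library of the comparison were ranked by log2 ratio, and the first 3 and last 2 are named, and for the primers the list genes called. A gene that this rule names is not reported here. The members and lists were chosen with earlier results of these data known. The alternatives changed the scaling, pseudocount, read minimum, transcript entry, comparator, test and libraries.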

Additional observations from a re-analysis of the deposited data

Results flagged for a closer look

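OSGIN1 was at 1.67 CPM (6 reads) in HEK293T T18VNN and had no read in the other 5 HEK293T libraries, so that 1 library stood apart from the rest. Of 10 members examined this way it was the only one, and a rule of this kind marks some groups by chance.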

How the results depend on the processing

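With A549 against HEK293T T12, 68 of 73 recomputed log2 ratios of members kept their call and 0 reversed, over other scalings, pseudocounts, read minimums, transcript entries and the median of the HEK293T libraries as comparator. The counts of members and of list genes at least 2-fold higher stayed within 1.5 times. SRXN1 fell under 2-fold with 3 scalings and NFE2L2 (log2 ratio 0.76) against the median; NFE2L2 was also under a minimum of 50 reads. TMM scaling moved the median log2 ratio of all genes to -0.24 and the deposited library totals to -0.32, and the share of higher calls among all calls from 51.5% to 44.0% and 42.0%. The NFE2L2 entry with fewest reads was an alternative chosen after seeing the data.

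Between anchored and unanchored libraries the number of genes called, 147, was 581 with DESeq2, 556 with no filter on low counts, 2257 with the deposited library totals and 46 to 111 when 1 library was left out. Genes called higher, 85, became 281, 283, 2206 and 19 to 56 in the same order, and 152 with no scaling beyond reads on genes. Genes called lower, 62, became 300 with DESeq2, 273 with no filter and 27 to 66 with 1 library left out. Of 107 recomputed log2 fold changes of members, 1 passed an adjusted p of 0.05 and 11 reversed. With the deposited library totals SRXN1 was 0.35, SLC7A11 0.27, HMOX1 0.55 and GCLM 1.00, and with no scaling GCLM was 0.090. With 1 library left out KEAP1 was between -0.16 (T18) and 0.95 (T12), GCLM between -0.47 and 0.12 (T30), NQO1 between 1.63 (T12) and 5.13 (T30), NFE2L2 between 0.40 (T12) and 2.51 (T18), SLC7A11 between -1.35 (T12) and -0.40 (T30), SRXN1 between -1.24 (T18VN) and -0.29 (T18V), HMOX1 between -0.70 and -0.35 (T18VNN), GCLC between 0.31 (T12) and 0.76, and TXNRD1 between 0.40 (T18VNN) and 0.99; the library named is the one left out, and none of these passed an adjusted p of 0.05. The cause of these changes was not tested. No paired analysis was possible because HEK293T T12 and A549 T12 have gene counts for different replicate numbers and each other primer has 1 library. A549, the shallowest library on genes, limits members with few reads, such as KEAP1 and OSGIN1.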

Other observations

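Antioxidant enzymes not usually counted as NRF2 targets had 5 of 11 genes at least 2-fold higher in A549 than in HEK293T T12 (45.5%) and 3 lower (27.3%), against 31.0% and 29.2% of all genes, with a median log2 ratio of 0.74. SOD2, the mitochondrial superoxide dismutase, was 4.73-fold higher (3.91 to 5.75), catalase (CAT) 7.27-fold and the methionine sulfoxide reductase MSRA 14.9-fold. SOD1, the cytosolic superoxide dismutase, was 2.89-fold lower (2.47 to 3.39). The peroxiredoxin gene PRDX2 had 95 reads in HEK293T T12 and none in A549, at least 14.5-fold lower. Reference mRNAs also differed: ACTB was 8.92-fold and GAPDH 3.32-fold higher in A549, and TUBA1B 14.8-fold and HPRT1 3.49-fold lower. PRDX2 and the reference genes have near-identical copies elsewhere in the genome, so their counts are uncertain.

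Over the 7 libraries, the 5 genes whose centred log2(CPM + 1) profile was most like that of NQO1, among 9447 genes, were KRT8 (root mean square difference 0.86), FOXA2 (0.89), HSPA2 (0.90), HKDC1 (0.95) and CCL2 (1.01). In A549 they were at 1027, 433, 138, 218 and 242 CPM, and in HEK293T none exceeded 8.54 CPM. For NFE2L2 they were BOD1L1 (0.40), ERCC6L2 (0.42), MAML1 (0.42), COG7 (0.44) and RCAN3 (0.46). These are descriptions over 7 libraries of which 1 is A549.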
